A study of Homo sapiens with 6 samples.

Results

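Among the non-coding genes counted in this series, 1423 of 35036 rows had no gene name beyond their Ensembl identifier, were spliced and reached over more than 100 kb of the genome. They were taken by 3 criteria: a gene name equal to the identifier, a listed exonic length below the listed span, and a span above 100000 bases. The span ran from 100031 to 1299386 bases with a median of 156335, while the exonic length had a median of 3183 bases, so that in the median row 1.82% of the span was exon. GENCODE release 29, an earlier human annotation, holds 643 of the 1423, among them 421 as lincRNA, 151 as antisense, 47 as processed transcript and 3 as protein-coding genes. A span above 100 kb is itself a matter of annotation: only 387 of those 643 reached over 100 kb in release 29. A symbol was found for 4 rows in the gene name table, the pseudogenes GUSBP2, PMS2P4 and PPP5D1P and the read-through gene ARMCX5-GPRASP2.

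The libraries came from U-2OS, a human osteosarcoma cell line, and all 6 were from cells treated with actinomycin D, a drug that intercalates into DNA and blocks transcription by RNA polymerases. Cells given a control siRNA (SiCtrl, 3 libraries) were compared with cells given an siRNA against SFPQ (SiSFPQ, 3 libraries); no library without actinomycin D was included. The labels do not give separate cultures, so the p-values measure only the spread between these libraries, which may be technical. The table held 1298658 to 1599566 counts a library and no row for SFPQ or for any of the osteoblast, epithelial or blood cell marker genes looked for, so neither the knockdown nor the cell type was checked on its own genes.

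SFPQ (splicing factor proline- and glutamine-rich) is a nuclear protein that binds RNA and DNA, forms dimers with NONO and PSPC1, and is a core component of paraspeckles, the nuclear bodies assembled on the NEAT1 RNA. In neurons and muscle SFPQ has been tied to transcription across long genes, where polymerase has to travel through very long introns. Genes of this kind are mostly intron: a polymerase has to cross the whole span to give a spliced RNA of a few kilobases. Poly(A) selection captures the finished, polyadenylated RNA and reports its level, not the rate at which it was made.

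The span of these genes can be seen in their splice junctions. For 4 members described below, whose exons in GENCODE 29 do not overlap exons of coding genes, the join across the longest intron of the widest transcript is shown from the GENCODE 29 transcript sequences (GRCh38), with the 40 bases before the junction in lower case and the 40 after it in capitals. These 40-base ends sit side by side in the RNA and far apart in the genome.
ENSG00000249738: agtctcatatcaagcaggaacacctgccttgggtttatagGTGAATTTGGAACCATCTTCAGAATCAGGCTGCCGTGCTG
ENSG00000285407: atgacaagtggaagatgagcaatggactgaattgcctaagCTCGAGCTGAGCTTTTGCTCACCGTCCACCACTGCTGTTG
ENSG00000257060: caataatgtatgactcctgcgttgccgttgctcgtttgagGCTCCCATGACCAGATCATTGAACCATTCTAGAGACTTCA
ENSG00000283982: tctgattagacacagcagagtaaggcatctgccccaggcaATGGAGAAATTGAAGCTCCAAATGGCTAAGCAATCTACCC
The intron between the printed ends is 132522 bases long in ENSG00000249738 (chr5:159653570-159786091, plus strand), 165373 in ENSG00000285407 (chr1:68698451-68863823, plus), 235125 in ENSG00000257060 (chr15:93322347-93557471, plus) and 48067 in ENSG00000283982 (chr9:23554618-23602684, minus). The spliced RNAs themselves are 4154, 1805, 578 and 4805 bases long in the same order. The first pair was higher and the other pair was lower in SiSFPQ.

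The question was how the RNA of these long genes compared when SFPQ was targeted, with actinomycin D present throughout. Of the 1423 rows, 471 had no count in any library and 651 had too few to test; the 301 that passed the filter on low counts lay at 289 separate loci, and the untested rows held 2.33% of the members' counts. A quasi-likelihood fit in edgeR was made over all 6325 tested genes, with p-values adjusted by Benjamini and Hochberg's method. In it 46 members were higher in SiSFPQ, 105 were lower and 150 were not called at an adjusted p of 0.05. Calls in either direction were about as common as elsewhere, 50.2% of members against a background of 48.4% of all tested genes. Their direction was less even: 15.3% of members were higher, against 24.5% of all tested genes, and 34.9% were lower, against 24.0%. DESeq2, another count model, called fewer genes of every kind: 27 members (7.50% of 360) higher and 58 (16.1%) lower, against 11.2% and 11.8% of all genes it tested. A lower level in a bulk library can come from fewer cells that hold the RNA or from less RNA per cell, and these cannot be told apart. The median log2 fold change of tested members was -0.18, with quartiles of -0.60 and 0.21, and that of all tested genes was 0.01. Without a filter on low counts the members' median was -0.09 and that of all genes -0.07, while 43 members (4.52%) were called higher and 98 (10.3%) lower, against 6.87% and 6.81% of all genes.

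**Figure D1:**
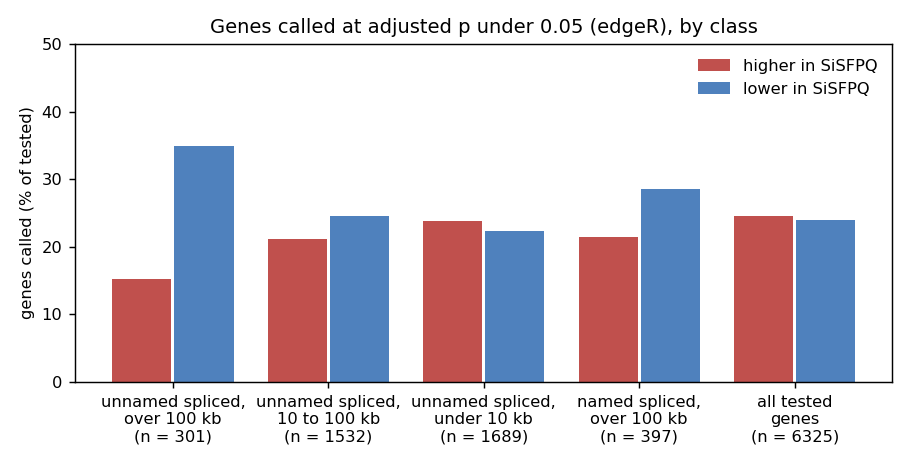
Bars give the percentage of tested genes called higher (red) or lower (blue) in SiSFPQ by edgeR at an adjusted p of 0.05, for each class of rows, with the number tested under each name. In unnamed spliced genes over 100 kb 34.9% were lower and 15.3% higher, against 24.0% and 24.5% over all tested genes.

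The shorter unnamed spliced genes were more evenly divided. Of 1532 tested genes spanning 10 to 100 kb, 325 were higher and 375 lower, with a median of -0.03, and of 1689 under 10 kb, 402 were higher and 376 lower, with a median of 0.00. Named spliced genes over 100 kb lay between, with 85 higher and 113 lower of 397 and a median of -0.06. The difference of medians between members and shorter unnamed spliced genes was -0.17 and ran from -0.22 to -0.08 over the 9 pairs of single libraries; without the low-count filter it was -0.02. These are descriptions of lists, and the difference between the classes was not tested.

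The same division appeared in each library. CPM is a gene's count scaled to the total of its library's tested genes. As the deviation of log2 CPM from a gene's own mean over the 6 libraries, the median over tested members was 0.12, 0.11 and 0.07 in the SiCtrl libraries and -0.05, -0.09 and -0.10 in the SiSFPQ libraries. The 2 groups of libraries did not overlap in this measure, and over all tested genes it ran only from 0.00 to 0.02. Over unnamed spliced genes of 10 to 100 kb it was 0.01, 0.04 and 0.03 in SiCtrl and 0.02, -0.01 and -0.01 in SiSFPQ. Members took 3.29%, 3.30% and 3.34% of the table's counts in SiCtrl and 3.15%, 3.11% and 3.12% in SiSFPQ, which is 3.31 ± 0.0276% and 3.13 ± 0.0217% (SD, n = 3 each). Large changes went both ways: 19 of 301 members were called higher and 23 lower with a log2 fold of at least 1. The background was 434 (6.86%) and 340 (5.38%) of 6325 tested genes. The groups did not overlap for 50 members (16.6%) that were higher and 106 (35.2%) that were lower, against a background of 27.1% and 26.9% of all tested genes. Of the tested members, 38 reached the filter's level of 6.68 CPM in every SiCtrl library but not in every SiSFPQ library, and 30 the reverse, so that these passed through one group. Those that passed through SiCtrl include ENSG00000291166, ENSG00000260661, ENSG00000282381, ENSG00000289621, ENSG00000286134, ENSG00000257545, ENSG00000306949, ENSG00000257060, ENSG00000280241 and ENSG00000288902. Through SiSFPQ passed, among others, ENSG00000294752, ENSG00000253125, ENSG00000303324, ENSG00000304694, ENSG00000306126, ENSG00000248112, ENSG00000308468 and ENSG00000260126. Their changes, given below, cannot be read apart from the filter.

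**Figure D2:**
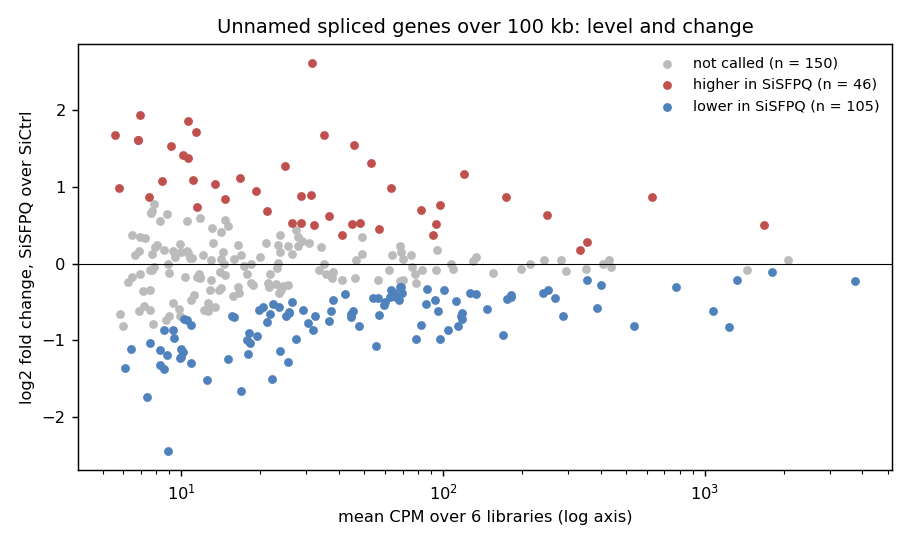
Each point is 1 of the 301 tested members, with its mean CPM on a log axis and its log2 fold change, SiSFPQ over SiCtrl. The 105 lower members (blue) reach up to the most abundant one, while the 46 higher members (red) include the largest single change of 2.61.

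The share called rose with level in members and in all genes. Above 50 CPM, 49 of 94 members were lower and 14 higher (median -0.23), where all tested genes at that level had 34.9% lower and 31.4% higher. Between 15 and 50 CPM 35 of 96 members (36.5%) were lower and 16 (16.7%) higher, against 22.2% and 22.9% of all genes. Below 15 CPM 21 of 111 (18.9%) were lower and 16 (14.4%) higher, against 13.2% and 18.1%. By exonic length, 44 of 109 members over 8 kb (40.4%) were lower and 14 (12.8%) higher, where all genes of that length were tilted too, with 31.4% lower and 22.6% higher. From 3 to 8 kb 38 of 117 (32.5%) were lower and 20 (17.1%) higher, against 24.6% and 26.7% of all genes, and under 3 kb 23 of 75 (30.7%) were lower and 12 (16.0%) higher, against 22.4% and 23.9%. Over classes of span, 49 of 133 members (36.8%) were lower and 18 (13.5%) higher from 100 to 150 kb. From 150 to 250 kb 34 of 101 (33.7%) were lower and 17 (16.8%) higher. Above 250 kb 22 of 67 (32.8%) were lower and 11 (16.4%) higher. All tested genes had 24.0% lower and 24.5% higher. Spearman's rho across the 301 genes, which share libraries and are not independent replicates, was 0.07 for span, -0.05 for exonic length and -0.03 for level with log2 fold change. At the lower edge of the span criterion the tested members of 100192, 100287 and 100385 bases had log2 fold changes of 0.11, -1.12 and 0.37, and the unnamed spliced genes just below it, of 99927, 99785 and 99714 bases, had 1.47, -0.78 and 1.40.

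**Figure D3:**
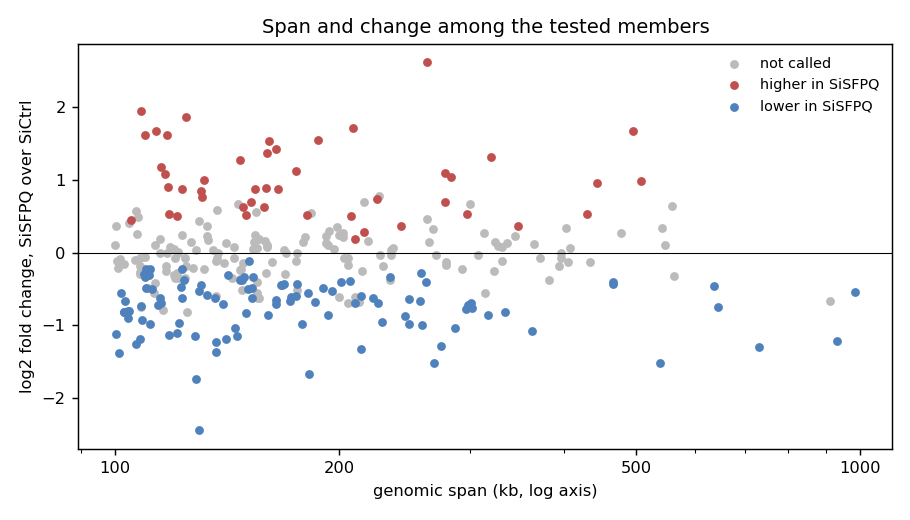
Each point is a tested member, with its genomic span on a log axis and its log2 fold change, SiSFPQ over SiCtrl, colored by the edgeR call at an adjusted p of 0.05. Spearman's rho between the axes over the 301 genes is 0.07.

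Reads of these rows are hard to separate from those of their neighbors, because how the counting treated strand and overlap was not given, and reads of genes that overlap may be split or shared between them. Of the 301 tested members, 188 overlapped another row of the table, and 4 held totals within 5% of an overlapping row. Only 58 tested members overlapped no exon of a coding gene and no exon of another row, by GENCODE 29 exons where that release holds the gene and by the listed span otherwise. In these 58, 16 (27.6%) were lower and 12 (20.7%) higher, with a median of -0.12, and in the other 243, 89 (36.6%) were lower and 34 (14.0%) higher, with a median of -0.21. Unnamed spliced genes of 10 to 100 kb without such overlap had nearly the same shares of calls as the 58, with 27.0% of 315 lower and 20.6% higher and a median of -0.04. Of the tested members outside any coding gene 46 of 125 (36.8%) were lower and 23 (18.4%) higher. Of those touching one 59 of 176 (33.5%) were lower and 23 (13.1%) higher. Where GENCODE 29 exons lay over coding exons on the opposite strand alone, 17 of 40 (42.5%) were lower and 7 (17.5%) higher. Over coding exons of the same strand 10 of 24 (41.7%) were lower and 4 (16.7%) higher. The background over all tested genes was 24.0% lower and 24.5% higher.

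The members free of such overlap give the clearest single-gene values. ENSG00000287097 (chr6:114682744-115002282, plus strand; 319539 bases with 1953 of exon), a gene outside coding genes, had 35.0, 29.9 and 26.2 CPM in SiCtrl and 74.1, 72.3 and 80.2 in SiSFPQ. Every SiSFPQ library lay above every SiCtrl library, and the log2 fold change was 1.31 ± 0.15 (SE, edgeR, adjusted p = 4.6e-17). ENSG00000287097 was named after its values were seen, so this separation adds no support. ENSG00000249738, which RefSeq names IL12B-AS1 because it runs antisense past the gene of an interleukin-12 subunit (chr5:159310579-159805536, plus), rose from 13.6, 20.4 and 16.5 to 41.2, 58.6 and 60.1 CPM, or by 1.67 ± 0.19 on the log2 scale (edgeR, adjusted p = 2.4e-17). It is also among the longest, with 494958 bases. ENSG00000308468 (chr6:120005723-120214677, plus), further along the same chromosome as ENSG00000287097, rose to 17.5 ± 4.00 CPM from 5.18 ± 1.53 (SD, n = 3), or by 1.71 on the log2 scale. ENSG00000294752 (chr1:22163372-22273253, plus) rose from 3.34 ± 1.51 to 10.3 ± 2.44 CPM (log2 fold change 1.61). Both were at a few CPM in SiCtrl and reached the filter's level in every SiSFPQ library but not in every SiCtrl library. Separate groups were a condition for listing both, and ENSG00000249738, among the largest increases. ENSG00000232855 (chr21:28328738-28836771, minus), a lincRNA gene of 508034 bases, rose from 42.1, 46.9 and 37.4 to 97.0, 69.1 and 86.0 CPM (log2 fold change 0.98 ± 0.14, edgeR, adjusted p = 6.6e-12). Further increases without overlap were 1.42 for ENSG00000260126 on chromosome 16 (2.29 without SiCtrl replicate 2, which held 15 counts against 5 and 3 in the other SiCtrl libraries), 1.27 for ENSG00000288891 on chromosome 9 and 1.04 for ENSG00000285407 on chromosome 1; the last lost its call with DESeq2 (adjusted p = 0.065).

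Decreases without overlap were led by ENSG00000291166 (chr9:42825593-42955508, plus), next to the centromere of chromosome 9 in a region known for segmental duplications. It had 23, 22 and 18 counts in SiCtrl and 6, 1 and 5 in SiSFPQ, or 14.9 ± 1.47 and 2.81 ± 2.01 CPM (SD, n = 3). Its log2 fold change was -2.44 ± 0.39 (edgeR, adjusted p = 3.0e-09). How reads were shared among near-identical copies was not given, so its counts are uncertain, as are those of ENSG00000288891 nearby on the same chromosome. ENSG00000260661 (chr15:92148752-92331037, minus), whose span overlaps SLCO3A1, a transporter gene of the organic anion family, had 32.8, 21.1 and 23.2 CPM in SiCtrl and 8.40, 9.97 and 5.82 in SiSFPQ. The difference was -1.66 ± 0.27 on the log2 scale (edgeR, adjusted p = 4.8e-09). Its groups did not overlap, which was a condition for listing it among the largest decreases. It reached the filter's level in every SiCtrl library but not in every SiSFPQ library. ENSG00000257060 (chr15:93029193-93760799, plus), over the 731607 bases beside and across the axon guidance gene RGMA, fell from 17.1, 17.0 and 12.0 to 10.7, 5.61 and 3.23 CPM (log2 fold change -1.29 ± 0.32), a call that DESeq2 missed narrowly (adjusted p = 0.053). ENSG00000282381 (chr7:65269305-65370725, plus) fell to 4.74 ± 0.528 CPM from 12.4 ± 2.16 (log2 fold change -1.38). ENSG00000253288 on chromosome 8 (137809444 to 138083657, minus) fell from 36.5 ± 4.97 to 14.8 ± 3.65 CPM (-1.28), and ENSG00000308905 on chromosome 10 had a log2 fold change of -0.90, which lost its call with DESeq2 (adjusted p = 0.063). The most abundant called member without overlap was ENSG00000242588 (chr7:128530380-128663479, plus), with 461, 467 and 467 CPM in SiCtrl and 323, 296 and 315 in SiSFPQ. Its groups did not overlap (log2 fold change -0.58 ± 0.07, edgeR, adjusted p = 2.1e-17), but it was named after its values were seen. ENSG00000283982 (chr9:23500691-23672399, minus) fell from 64.2, 78.8 and 65.8 to 52.7, 41.1 and 39.4 CPM (log2 fold change -0.67 ± 0.14, edgeR, adjusted p = 9.0e-06).

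**Figure D4:**
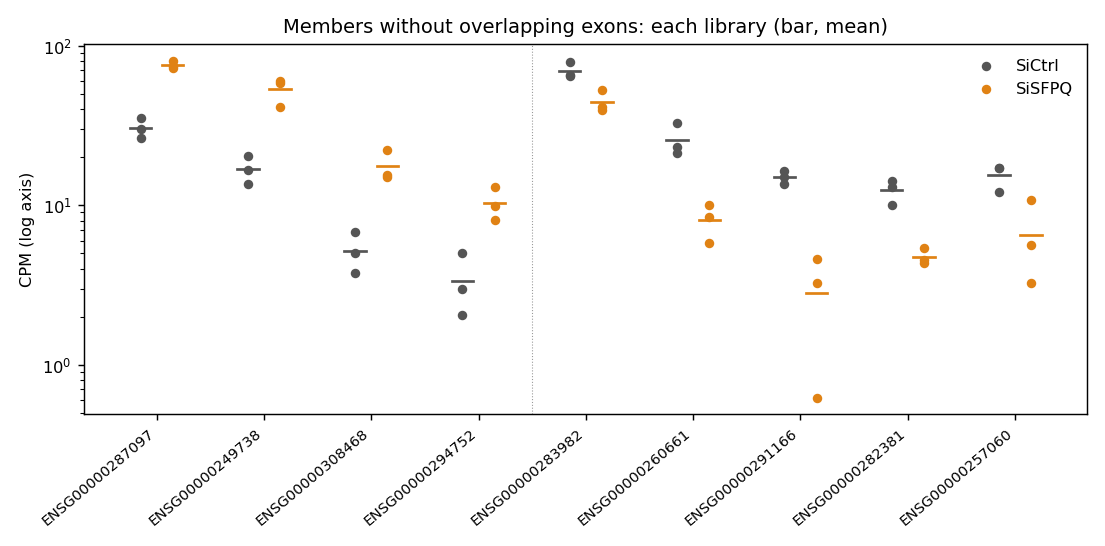
Points give the CPM (log axis) of 9 members without overlapping exons in each of the 6 libraries and short bars the group means, SiCtrl in grey and SiSFPQ in orange, with 4 higher members left of the dotted line and 5 lower ones right of it. The groups of all 9 are apart, which was a condition for naming most of them, and ENSG00000291166 has the lowest single value, 0.623 CPM.

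Promoter sequence could be shown for few members: 30 were linked through GENCODE 29 and RefSeq transcript identifiers to a RefSeq promoter window of 250 bases before to 50 after the start, and 9 of these were tested. The 4 windows below (RefSeq, GRCh38.p14) belong to IL12B-AS1, which rose, and to 3 members that fell, the latter with RefSeq starts within 109 bases of the listed ones. Those 3 were picked after their values were seen. Capitals mark GGGCGG, the GC box bound by Sp1-type factors, or its reverse complement; TATAAA and CCAAT were searched on both strands too, and none of the 3 motifs overlaps another.
ENSG00000249738: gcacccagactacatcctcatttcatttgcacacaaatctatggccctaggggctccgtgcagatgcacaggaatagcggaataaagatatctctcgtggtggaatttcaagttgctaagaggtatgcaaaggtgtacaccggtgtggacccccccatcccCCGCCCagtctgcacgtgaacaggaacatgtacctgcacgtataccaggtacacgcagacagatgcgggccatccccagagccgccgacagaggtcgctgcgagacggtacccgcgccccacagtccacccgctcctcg
ENSG00000257545: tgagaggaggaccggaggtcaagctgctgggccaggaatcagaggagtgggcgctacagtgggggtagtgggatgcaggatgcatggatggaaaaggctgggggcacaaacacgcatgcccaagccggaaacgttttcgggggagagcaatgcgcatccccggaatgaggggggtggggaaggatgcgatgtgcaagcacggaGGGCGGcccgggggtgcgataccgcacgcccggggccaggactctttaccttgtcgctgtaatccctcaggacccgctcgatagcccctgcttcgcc
ENSG00000267506: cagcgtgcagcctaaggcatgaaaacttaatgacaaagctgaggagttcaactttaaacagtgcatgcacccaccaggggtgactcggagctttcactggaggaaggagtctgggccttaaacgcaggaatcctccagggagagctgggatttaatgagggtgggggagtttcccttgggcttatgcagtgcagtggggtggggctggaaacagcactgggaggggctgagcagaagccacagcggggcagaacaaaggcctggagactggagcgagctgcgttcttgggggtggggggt
ENSG00000283982: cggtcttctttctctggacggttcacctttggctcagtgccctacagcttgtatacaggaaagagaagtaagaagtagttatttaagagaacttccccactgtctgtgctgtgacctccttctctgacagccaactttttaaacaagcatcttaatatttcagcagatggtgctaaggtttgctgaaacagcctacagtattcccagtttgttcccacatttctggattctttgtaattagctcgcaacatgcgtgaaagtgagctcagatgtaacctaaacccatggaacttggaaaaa
The windows lie at chr5:159331268-159331567 (plus), chr12:106774782-106775081 (minus), chr17:77546691-77546990 (plus) and chr9:23672350-23672649 (minus) in that order. Their GC content was 57.3%, 63.7%, 57.3% and 42.7%, where the median of all 35116 RefSeq windows was 58.7%. GGGCGG was found in the first pair and in 45.0% of all windows. TATAAA, in 11.5% of all, and CCAAT, in 34.6%, were found in none of the 4. Of the tested members not shown, GGGCGG was in the windows of ENSG00000213963 and ENSG00000246090 (log2 fold changes -0.01 and -0.25). It was absent from those of ENSG00000225889, ENSG00000227733 and ENSG00000228697 (-1.13, -0.80 and 0.15). The RefSeq start of ENSG00000249738 lies 20939 bases inside its listed start, so that other starts of this gene are not shown. ENSG00000257545 (chr12:106488804-106774940, minus) starts beside RIC8B and overlaps exons of RIC8B and POLR3B on the opposite strand, so its reads may be shared. It fell to 4.92 ± 0.786 CPM from 10.2 ± 1.04, or by 1.04 on the log2 scale (adjusted p = 0.18 with DESeq2, and 0.065 and 0.059 in edgeR without SiCtrl replicate 1 and SiSFPQ replicate 2). ENSG00000267506 (chr17:77546910-77737422, plus) fell by 0.48, with 52.1, 42.1 and 38.2 CPM in SiCtrl and 29.8, 39.9 and 24.6 in SiSFPQ. Its groups overlapped, and the call was lost with DESeq2 (adjusted p = 0.19) and in edgeR without SiCtrl replicate 1 (0.13) or SiSFPQ replicate 3 (0.15).

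Members whose listed start lay within 1000 bases of the start of a coding gene on the opposite strand, as transcripts from a shared, divergent promoter do, had more lower than higher calls. Of 50 such tested members 24 were lower and 5 higher, with a median log2 fold change of -0.34, and of the other 251, 81 were lower and 41 higher, with a median of -0.13. Divergent rows of the other classes had more higher than lower calls: 420 of 1495 in the whole series were higher and 278 lower (median 0.09), among unnamed spliced genes of 10 to 100 kb 69 of 293 were higher and 54 lower, and among named spliced genes over 100 kb 23 of 99 were higher and 20 lower. This grouping was chosen after the values were seen, and the difference between the classes was not tested. Only 6 of the 50 were in GENCODE 29 with exons clear of coding exons, and 2 of those 6 were lower and 0 higher.

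**Figure D5:**
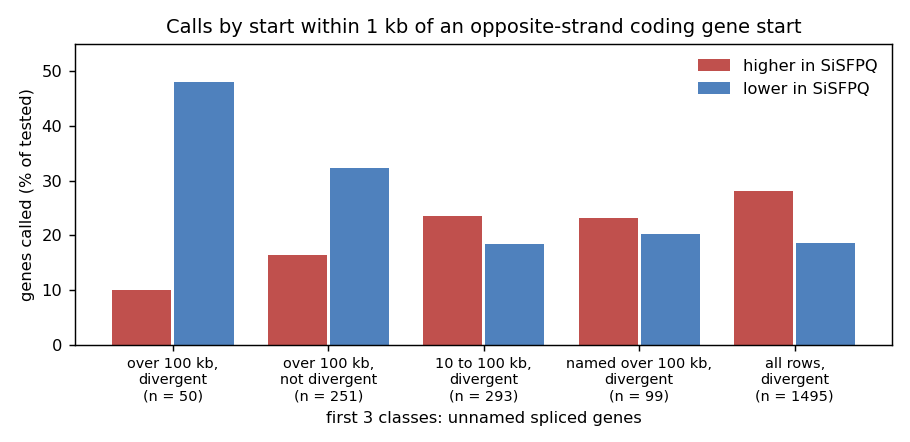
Bars give the percentage of tested genes called higher (red) or lower (blue) in SiSFPQ, for rows that start within 1000 bases of the start of a coding gene on the opposite strand and, as the second pair of bars, for members that do not. Among members that do, 48.0% were lower and 10.0% higher, and among all such rows 18.6% were lower and 28.1% higher.

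The divergent members that fell furthest were ENSG00000280241 at RNF175, ENSG00000283235 at SIMC1, ENSG00000287045 at the calcium channel gene TRPC1 and ENSG00000308733 at UBXN4. Their log2 fold changes were -1.52, -1.25, -1.14 and -1.12. ENSG00000280241 (chr4:153759468-154298819, plus), which also crosses exons of the cadherin gene DCHS2, had 20.0, 19.0 and 17.2 CPM in SiCtrl and 3.82, 6.85 and 8.40 in SiSFPQ. At higher counts, ENSG00000249207 (chromosome 4, 39066974 to 39182195, minus), which starts beside WDR19, a gene of transport within cilia, had 497, 505 and 487 counts in SiCtrl and 251, 369 and 363 in SiSFPQ (log2 fold change -0.69 ± 0.07, edgeR, adjusted p = 5.7e-20). The 5 divergent members that rose were ENSG00000304694 at OSBPL11 (1.61), ENSG00000274874 at CCDC92 (1.17), ENSG00000287042 at ANKRD28 (1.09), ENSG00000230074 at AL162231.1 (0.70) and ENSG00000288866 at WDR75 (0.50). The divergent members without a full account elsewhere were named after their values were seen.

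The largest increase of all was that of ENSG00000300496 (chr20:51182800-51444734, plus), whose span crosses exons of NFATC2, the gene of a calcium-regulated transcription factor, on the opposite strand. It had 11.4, 6.79 and 8.23 CPM in SiCtrl and 54.2, 60.4 and 47.2 in SiSFPQ. The log2 fold change was 2.61 ± 0.22 (edgeR, adjusted p = 2.9e-30). Separate groups were a condition for the members listed as largest changes, so their separation adds no support. ENSG00000253125 on chromosome 8 (22690150 to 22798616, plus), whose GENCODE 29 exons overlap those of EGR3, an immediate early transcription factor gene, rose by 1.94 on the log2 scale. ENSG00000306126 on chromosome 17, whose span holds a cluster of keratin and keratin-associated protein genes, rose by 1.86. ENSG00000303324 on chromosome 3 rose by 1.67, a call lost with DESeq2 (adjusted p = 0.06), and ENSG00000248112 on chromosome 5 rose by 1.53.

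ENSG00000297708 (chr3:115790841-115977940, plus) lies opposite LSAMP, a cell adhesion gene that spans one of the common fragile sites, stretches of very long genes prone to breakage when replication is impaired. It had 15.7, 23.8 and 30.7 CPM in SiCtrl and 64.9, 61.7 and 76.9 in SiSFPQ, higher by 1.54 ± 0.16 on the log2 scale (edgeR, adjusted p = 2.5e-19). All SiSFPQ libraries were above all SiCtrl libraries, which was a condition for listing it among the largest increases. The overlapping row ENSG00000289153, just short of 100 kb, rose by 1.40 and overlaps it, so their reads may be shared. Of 30 fragile-site genes looked for, members overlapped some in 7 cases, and this was the only one of the 7 with enough counts to test.

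Among the decreases at coding genes, ENSG00000271894 (chr2:56118076-56386171, plus), which shares exon sequence with CCDC85A on the same strand, fell from 32.8, 27.9 and 38.2 to 13.0, 9.97 and 11.6 CPM. The log2 fold change was -1.51 ± 0.23 (edgeR, adjusted p = 7.8e-10), and separate groups were a condition for listing it. ENSG00000289621 on chromosome 11, opposite the glycine acyltransferase gene GLYATL2, fell by 1.74 on the log2 scale, and the row ENSG00000299851 that it overlaps fell by 0.71. Away from coding genes, ENSG00000286134 on chromosome 5 and ENSG00000306949 on chromosome 11 had log2 fold changes of -1.36 and -1.32, both at low levels. Both lost their call with DESeq2 (adjusted p = 0.12 and 0.07), and ENSG00000286134 lost it without SiCtrl replicate 2 as well (edgeR, adjusted p = 0.07). The row LINC02899 that ENSG00000286134 overlaps fell by 0.56 (edgeR, adjusted p = 0.02).

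Most of the abundant members crossed exons of coding genes, which are not analysed here. Levels are compared between them per kilobase of exon. ENSG00000285728 (chr1:42570775-42682167, minus) starts beside YBX1, the gene of an abundant RNA-binding protein, and crosses exons of PPIH, a spliceosomal cyclophilin gene. It had 3963, 4096 and 4130 CPM in SiCtrl and 3278, 3441 and 3657 in SiSFPQ, at 593 CPM per kb over the 6 libraries. The decrease was small and the groups apart (log2 fold change -0.23 ± 0.04, edgeR, adjusted p = 4.9e-07). ENSG00000265257 on chromosome 18, over the respiratory complex I gene NDUFV2, had the highest level per kb of those named here, 1725 CPM per kb. Its change of -0.11 on the log2 scale (edgeR, adjusted p = 0.032) lost its call with plain library totals (adjusted p = 0.39) and no filter (0.087). The call was also lost with a looser filter of at least 1 CPM in 3 libraries (0.052), which kept 517 members. It was lost too without SiCtrl replicate 3 (0.086) or SiSFPQ replicate 1 (0.051), 2 (0.11) or 3 (0.076). ENSG00000237188 on chromosome 1, which starts beside PRKAB2 and lies over the chromatin remodeler gene CHD1L, fell by 0.22 on the log2 scale. The row ENSG00000293279 that it overlaps went the other way, with an increase of 0.91 (edgeR, adjusted p = 8.7e-17), and their reads may be shared. ENSG00000293062 (chr21:9529928-9679906, plus), on the repeat-rich short arm of chromosome 21 and outside coding genes, fell from 1618, 1523 and 1599 to 883, 842 and 933 CPM. At -0.83 ± 0.05 on the log2 scale (edgeR, adjusted p = 1.1e-59) it had the smallest adjusted p of all members, and its reads too may be shared with near-identical copies.

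The most abundant increase was that of ENSG00000284707 (chr7:97851688-97972985, minus), which shares exons with ASNS on the same strand. ASNS encodes asparagine synthetase and is induced when amino acids are short. The row had 1357, 1410 and 1413 CPM in SiCtrl and 2066, 1973 and 1855 in SiSFPQ (log2 fold change 0.50 ± 0.05, edgeR, adjusted p = 6.4e-24), and its reads cannot be told from those of ASNS. ENSG00000293643 (chr4:52712394-52866821, plus) overlaps DANCR, a widely expressed long non-coding RNA gene, and rose from 441, 464 and 432 to 821, 808 and 815 CPM. Its log2 fold change was 0.87, next to 0.93 for DANCR. A further overlapping row, ENSG00000286161, held 5494 counts and this one 5510, and whether these rows count the same reads was not tested. ENSG00000235978 (chr3:4764242-4887293, minus), antisense to ITPR1, a calcium release channel gene of the endoplasmic reticulum, rose from 113, 139 and 117 to 226, 212 and 237 CPM (log2 fold change 0.87 ± 0.09). ENSG00000294598 on chromosome 14, outside coding genes, rose by 0.28. ENSG00000228509, over NAB1, a corepressor gene of the EGR factors, rose by 0.18 (edgeR, adjusted p = 0.019), a call lost with DESeq2 (adjusted p = 0.17), with no filter (0.073) and without SiCtrl replicate 1 (0.27) or SiSFPQ replicate 2 (0.14).

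Several abundant members were not called. ENSG00000296268 on chromosome 7, whose span crosses the cytochrome c gene CYCS, had 2106, 2004 and 2040 CPM in SiCtrl and 2055, 2126 and 2146 in SiSFPQ (log2 fold change 0.04, edgeR, adjusted p = 0.48; 0.11 and adjusted p = 0.044 with plain library totals). The groups overlapped. ENSG00000288849, over the heat shock factor binding protein gene HSBP1, had 1485 CPM in the mean of SiCtrl and 1402 in that of SiSFPQ, with groups that did not overlap (adjusted p in edgeR 0.15). ENSG00000285016, over the anaphase-promoting complex gene ANAPC1, had means of 442 and 430 CPM (0.58). Among the rows it overlaps is the more abundant MIR4435-2HG, at 971 CPM (log2 fold change -0.13, edgeR, adjusted p = 0.024), and their reads may be shared.

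The longest tested members were not alike. ENSG00000286481 (chr2:121902450-122887691, plus) spans 985242 bases and fell from 74.9, 70.7 and 65.1 to 53.5, 46.1 and 45.9 CPM, with groups apart and a difference of -0.54 ± 0.14 on the log2 scale (edgeR, adjusted p = 2.6e-04). ENSG00000288902 (chr2:219940680-220870826, plus) spans 930147 bases and fell from 14.1 ± 4.67 to 5.83 ± 3.11 CPM (log2 fold change -1.22, but adjusted p = 0.075 with DESeq2). ENSG00000293110 (chr6:126304202-127214181, minus), over 909980 bases that hold RSPO3 and CENPW, had 7.85, 10.9 and 2.24 CPM in SiCtrl and 7.64, 1.87 and 4.53 in SiSFPQ. These groups overlapped and there was no call at a log2 fold change of -0.66 (adjusted p in edgeR 0.18), although leaving out SiCtrl replicate 3 gave an adjusted p of 0.042. The 3 widest rows of all, among them the one of 1299386 bases, were below the filter.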

How the data were processed

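RNA of 6 libraries was poly(A)-selected and made into stranded libraries, per the labels' protocols. The authors deposited a table of whole-number, unnormalized counts with each gene's position and exonic length. Its aligner, counter, annotation release and build are not stated in the labels. All 643 members found in GENCODE release 29 (GRCh38) overlapped their position there, so coordinates are read as GRCh38. Totals of 1298658 to 1599566 counts cover this table's genes, not the sequencing depth. Counts were tested with edgeR 4.0.16 (R 4.3.3): filterByExpr, TMM, robust quasi-likelihood fits on all genes with the group as sole term, two-sided, Benjamini-Hochberg adjusted at 0.05. CPM is relative to the tested counts of each library, scaled by TMM. Alternatives were RLE, upper-quartile and plain scaling, 2 filters, DESeq2 1.42.0, limma-voom (limma 3.58.1), the replicate number as a block, and fits that omit 1 library. No library pair within a group was a duplicate (chi-square per degree of freedom 1.19 to 1.33).

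Named members were, among those called, the 10 that rose most and the 10 that fell most with a mean of 5 CPM or more and separate groups, the 4 most abundant called in each direction, the 3 most abundant not called, the 3 longest tested, and the 3 largest in each direction, at 2 CPM or more, without overlap. Others were named after their values were seen. The members and lists were chosen with earlier results of these data known.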

Additional observations from a re-analysis of the deposited data

How the results depend on the processing

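DESeq2 called 27 members higher and 58 lower, all 27 and 56 of the 58 being among those of edgeR; the cause of the lower counts was not tested. With no filter the median log2 fold change of members was -0.09 and the difference from shorter unnamed spliced genes -0.02, over 952 members with any count; with plain library totals the median was -0.12, beside 0.07 over all genes, and the counts were 52 and 95. Members without overlapping exons alone gave 12 higher, 16 lower, a median of -0.12, a difference of -0.11 and shares of counts of 0.226% and 0.217%. Fewer genes enter the counts and shares, and the cause of the moved median was not tested. Leaving out 1 library gave 40 to 47 higher, 90 to 106 lower, medians of -0.22 to -0.17, differences of -0.21 to -0.16 and shares of 3.29% to 3.32% in SiCtrl and 3.12% to 3.14% in SiSFPQ; leaving out libraries for the shares was an alternative chosen after seeing the data. Replicate numbers did not pair the libraries (correlations of deviations 0.001, 0.006 and 0.004), and with the replicate block 46 members were higher and 104 lower, with a median of -0.17 and a difference of -0.16. The 45 named members gave 630 values under these settings. Of these 25 were no longer called, 2 became called, 0 were called in the opposite direction and the other 603 kept their call or lack of one. ENSG00000285016, not called at a log2 fold change of -0.04, had 0.02 with plain library totals and without SiSFPQ replicate 2. Without SiCtrl replicate 2 it had 0.05. Low counts limit members near the filter's level of 6.68 CPM.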
